A study of Mus musculus with 2 samples.

Results

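The genes of interleukin-6 (IL-6) and gp130 cytokine signalling were read in the transcriptome of dorsal root ganglion (DRG) sensory neuron preparations. The set holds 10 of the 24411 genes in the data: the ligand genes Il6, Lif and Clcf1, the receptor genes Il6st, Il6ra, Lifr, Cntfr and Il11ra1, the transcription factor gene Stat3 and the feedback inhibitor gene Socs3. The rows of each member were found by gene symbol, but the members were chosen with earlier results of these data known. Together they cover 20 of the 35034 RefSeq transcripts listed.

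The study compared C57BL/6 mice (C57BL/6J in its methods), 6 to 8 weeks old, that were injected intraperitoneally with 50% alum, an aluminium salt adjuvant, or with 50% alum plus 100 µg of keyhole limpet hemocyanin (KLH), a mollusc protein used as foreign antigen. Injections were given on days 0 and 14, and thoracic and lumbar DRGs were taken 14 days later, on day 28. The control library is labelled both naïve and alum alone, and was read as alum-injected because the methods of the study sequence no untreated mice. Each group was 1 library made from the neurons of 10 pooled mice, after enzymatic digestion, a density step to enrich neurons and removal of B cells with beads. No gene therefore has an error between mice, no test of immunization could be made, and no difference below has a replicate check. Values are in TPM (transcripts per 1000000 transcripts), a relative abundance that is corrected for transcript length, so that levels can be compared between genes. The methods of the study state a minimum read depth per sample, but TPM keeps no record of the reads behind each gene.

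Cytokines of this family signal through gp130, the shared receptor chain encoded by Il6st, in combination with a ligand-specific chain. Bound receptors activate JAK kinases, which phosphorylate STAT3; STAT3 then enters the nucleus and induces, among other genes, Socs3, whose product inhibits the same receptors. IL-6 binds its own alpha chain (Il6ra) before it engages gp130, whereas LIF uses a dimer of gp130 and LIFR, and ciliary neurotrophic factor (CNTF) and the cytokine encoded by Clcf1 use CNTFR together with that dimer. In sensory neurons the family is known for its part in survival, the response to axon injury and pain sensitivity.

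By log2 ratio with 1 TPM added to the values of both pools, the largest difference within the set was in a Stat3 transcript. The coding sequences in which the Stat3 transcripts differ are therefore shown first. All 3 are spliced from chromosome 11, chr11:100889511-100893103 on the minus strand (GRCm38), and are written 5′ to 3′. The capitals mark the 3 bases (chr11:100893074-100893076) that NM_213660 lacks and the 50 bases (chr11:100889541-100889590) that NM_011486 lacks.
Stat3 NM_213659: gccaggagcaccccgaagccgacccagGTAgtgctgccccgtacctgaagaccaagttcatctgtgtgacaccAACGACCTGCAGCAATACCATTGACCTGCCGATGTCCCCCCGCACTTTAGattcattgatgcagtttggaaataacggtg
Stat3 NM_213660: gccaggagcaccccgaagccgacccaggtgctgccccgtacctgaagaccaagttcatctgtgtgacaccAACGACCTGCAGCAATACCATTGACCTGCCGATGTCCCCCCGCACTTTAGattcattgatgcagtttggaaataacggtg
Stat3 NM_011486: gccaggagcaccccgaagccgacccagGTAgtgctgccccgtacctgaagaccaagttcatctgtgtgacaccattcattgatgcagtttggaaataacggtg
In the GENCODE M21 annotation NM_213659 encodes 770 codons, NM_213660 encodes 769, and NM_011486 encodes 722, because the absence of the 50 bases shifts the reading frame. NM_213659 and NM_213660 thus carry the long form of the protein, known as STAT3 alpha, with the full transactivation domain. NM_011486 carries the shortened form, STAT3 beta, which retains DNA binding and the activating tyrosine.

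In both pools Il6st, Lifr, Stat3 and Il6 were above 100 TPM, whereas the receptor genes Il6ra and Il11ra1 were below 3 TPM. Of the 10 members, 6 were above 3 TPM in both pools (Il6st, Lifr, Stat3, Il6, Socs3 and Cntfr) and 4 were below 3 TPM in both (Il11ra1, Il6ra, Clcf1 and Lif). Among all genes, 45.5% were above this threshold in both pools. The order of the 10 members from highest to lowest was the same in both libraries: Il6st, Lifr, Stat3, Il6, Socs3, Cntfr, Il11ra1, Il6ra, Clcf1 and Lif. Without replicates it cannot be said which neighbours in this order differ beyond their spread.

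**Figure D1:**
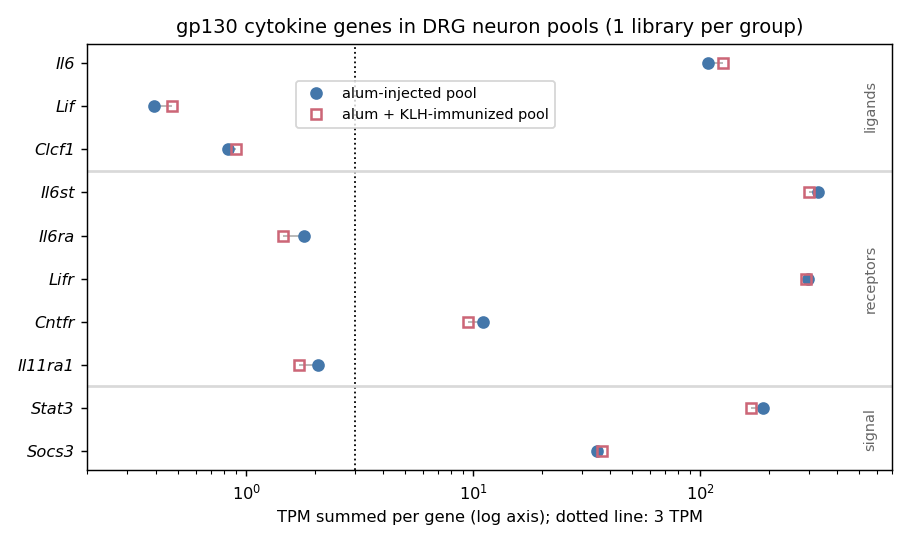
Level of each of the 10 members in the alum-injected pool (filled circles) and the alum + KLH-immunized pool (open squares), as the gene's summed TPM on a log axis, with 1 library per group and no error bars. The 4 genes left of the dotted line at 3 TPM are Lif, Clcf1, Il6ra and Il11ra1, and the 2 points of every gene lie close together.

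No member was at least 2-fold apart between the pools. For each gene 1 TPM was added to both values and the log2 of the immunized value divided by the control value was taken, a scale that understates differences of genes with low TPM. Of the 6 members above 3 TPM, 0 were at least 2-fold higher in the alum + KLH pool and 0 lower, against 0.695% higher and 0.944% lower of the 11648 genes that exceeded 3 TPM in either pool. These background shares rest largely on microRNA and small nucleolar RNA genes, which an mRNA library samples poorly: without them 6 and 18 of 11389 genes were at least 2-fold apart. The log2 ratios of the 10 members spanned -0.20 to 0.23, with 4 members higher in the alum + KLH pool and 6 lower. The median of the 6 members above 3 TPM was -0.08, beside -0.02 over all genes that passed the threshold. In pooled tissue a lower value can come from fewer cells of a type or from less RNA per cell, and these cannot be told apart.

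Il6, which encodes the founding ligand of the family, was the highest of the 3 ligand genes. It stood at 107.9 TPM in the alum pool and 126.3 TPM in the alum + KLH pool, and only 8.25% and 7.21% of all genes were higher. Both pools were digested with enzymes before RNA was taken, and the level of Il6 in undigested ganglia was not measured. Il6 has 5 exons at chr5:30013114-30019981 on the plus strand, encodes 211 codons and shares none of its 31-base words with other annotated genes. Its log2 ratio of 0.23 was the highest of the members, and the alum + KLH pool held the larger value. For scale, the log2 ratio of the 500 genes closest in abundance had an SD of 0.12, which describes these 2 libraries and is no error between mice. Of detected genes of every abundance (above 3 TPM in either pool), 15.4% differed by as much in either direction. The log2 ratio of those genes had a wider SD, 0.39, and the share among genes close to Il6 in abundance was not computed.

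The other ligand genes were below 1 TPM in both pools. Lif, at chr11:4257557-4272514 on the plus strand, encodes leukaemia inhibitory factor and stood at 0.39 TPM in the alum pool and 0.47 TPM in the alum + KLH pool. All of it was assigned to NM_008501, and NM_001039537 was listed at 0 in both pools. Clcf1, at chr19:4214238-4223490 on the plus strand, encodes a neurotrophic cytokine that signals through CNTFR and stood at 0.83 and 0.90 TPM. Il6 thus exceeded Lif by 275.4 times in the alum pool and 267.1 times in the alum + KLH pool, on the TPM scale. With log2 ratios of 0.08 for Lif and 0.06 for Clcf1, both lay within their neighbour SD (0.23 and 0.36).

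Among the receptors, the shared chains were high, the alpha chain genes Il6ra and Il11ra1 were below 3 TPM, and the alpha chain gene Cntfr lay between. Il6st, which encodes gp130, was the highest member at 329.3 TPM in the alum pool and 299.4 TPM in the alum + KLH pool, a log2 ratio of -0.14 beside a neighbour SD of 0.19. It lies at chr13:112464070-112510086 on the plus strand, and 2.45% and 2.80% of genes were higher. Lifr, which encodes the signalling partner of gp130 for LIF and CNTF, was close to it in both pools at 296.2 and 291.9 TPM. With -0.02, its log2 ratio was the smallest in size of the set. The gene is at chr15:7090614-7197489 on the plus strand. The ratio of Il6st to Lifr was 1.11 in the alum pool and 1.03 in the alum + KLH pool, so that transcripts of both chains of the LIF receptor were present at similar levels.

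Il6ra, the gene of the IL-6 alpha chain, had only 1.79 TPM in the alum pool and 1.46 TPM in the alum + KLH pool. It lies at chr3:89864059-89913196 on the minus strand, and its level was exceeded by 51.6% and 52.9% of all genes. Il6st was 183.6 times Il6ra in the alum pool and 205.6 times in the alum + KLH pool. The log2 ratio of Il6ra was -0.19 beside a neighbour SD of 0.90, a spread that microRNA and small nucleolar RNA genes widen at this level; without them it was 0.24. Il11ra1, which encodes the alpha chain for interleukin-11, was also low at 2.07 and 1.71 TPM. It lies at chr4:41699989-41769474 on the plus strand, and 64.6% of the 31-base words of its transcript NM_010549 also occur in the annotated gene Gm13305, so its level is uncertain.

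Cntfr, at chr4:41657498-41697089 on the minus strand, encodes the alpha chain for CNTF and was the only alpha chain of the set above 3 TPM. Its level was 11.1 TPM in the alum pool and 9.51 TPM in the alum + KLH pool, which makes Lifr 26.7 and 30.7 times as abundant. The log2 ratio of -0.20 was within the neighbour SD of 0.34, but beyond the 0.19 found when microRNA and small nucleolar RNA genes were left out of the neighbours.

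Stat3, the main transcription factor of the pathway, lies at chr11:100885098-100939540 on the minus strand. Summed over its transcripts it stood at 188.0 TPM in the alum pool and 166.1 TPM in the alum + KLH pool, with 4.64% and 5.41% of genes higher. The log2 ratio was -0.18 beside a neighbour SD of 0.16. The direction was the opposite, 0.10, when only the highest transcript was read. Socs3, at chr11:117966079-117970047 on the minus strand, had 35.0 and 36.9 TPM. The log2 ratio, 0.08, was within the neighbour SD of 0.16 and turned to -0.006 when both pools were set relative to the housekeeping gene Hprt. Stat3 was 5.37 times Socs3 in the alum pool and 4.50 times in the alum + KLH pool. Across the set, 2 members (Il6 and Stat3) had a log2 ratio larger in size than their neighbour SD. With the small RNA genes left out of the neighbours there were 3, with Cntfr. The share of all genes beyond their own neighbour SD was not computed, so these counts do not set the members apart from other genes.

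**Figure D2:**
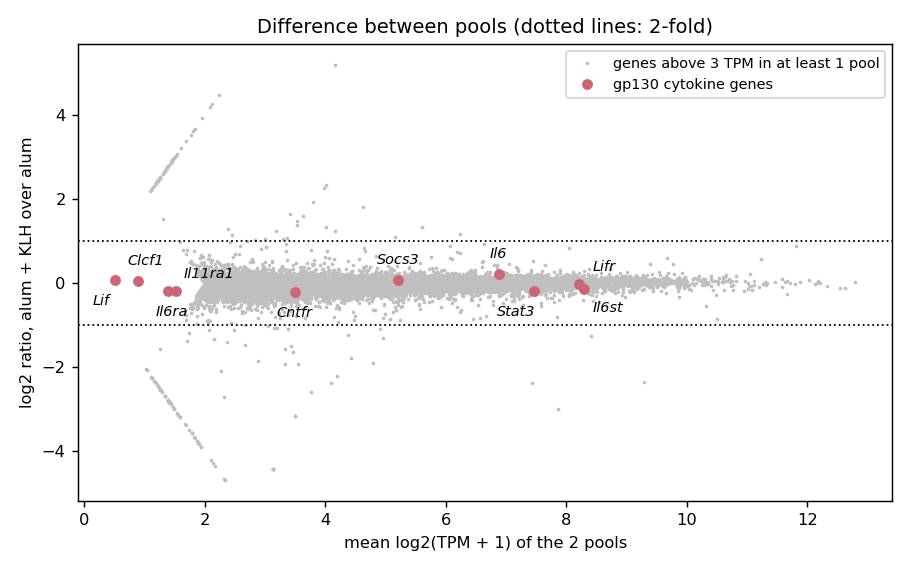
Log2 ratio of alum + KLH over alum against mean log2(TPM + 1) of the 2 pools, for all genes that passed 3 TPM in either pool (grey) and the 10 members (red). All members lie between the dotted 2-fold lines, from -0.20 for Cntfr to 0.23 for Il6; the grey points in 2 oblique lines at low abundance are genes listed near 0 in 1 of the pools.

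The transcripts of Stat3 were less alike between the pools than its sum. NM_011486, the short coding form, was the highest in both pools, at 95.9 TPM in the alum pool and 102.8 TPM in the alum + KLH pool (log2 ratio 0.10). NM_213659, the long form with the 3 bases, stood at 68.2 and 59.7 TPM (-0.19). NM_213660, the long form without the 3 bases, was at 23.9 TPM in the alum pool and 3.58 TPM in the alum + KLH pool. Its log2 ratio was -2.44 beside an SD of 0.36 over the 500 transcripts closest in abundance. Those transcripts were matched on abundance alone, so the SD does not describe how uncertainly reads were divided among the Stat3 transcripts. NM_213660 was the only member transcript at least 2-fold lower, of 10 that exceeded 3 TPM in either pool, and 0 were at least 2-fold higher. Over all 14215 transcripts above 3 TPM, 2.79% were at least 2-fold lower and 1.86% higher. Without microRNA and small nucleolar RNA rows these shares were 2.00% and 1.36% of 13945 transcripts.

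As a share of the Stat3 sum, the short form made up 51.0% in the alum pool and 61.9% in the alum + KLH pool. NM_213659 held 36.3% and 36.0%, and NM_213660 held 12.7% and 2.15%. Both long forms together were at 92.1 TPM in the alum pool and 63.3 TPM in the alum + KLH pool, a log2 ratio of -0.53, or 49.0% and 38.1% of the sum. These values are estimates, since kallisto divides the reads of a gene among transcripts that share most of their sequence. NM_213660 has 28 words of 31 bases that occur in no other Stat3 transcript, against 136 in NM_213659 and 1741 in NM_011486, whose last exon runs 1712 bases further. Most of what separates the short form from the others is therefore its 3′ end and not the 50 coding bases. The 3 transcripts also differ in total length, at 4516 bases for NM_213659, 2927 for NM_213660 and 6042 for NM_011486. NM_213660 ends at chr11:100888236 and NM_213659 at chr11:100886810, so the 2 long forms differ by more than the 3 coding bases. Whether the lower estimate of NM_213660 reflects the 3 bases or the transcript ends was not tested.

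Lifr was divided in nearly the same way in both pools. NM_013584, which encodes the membrane receptor of 1092 codons, was at 284.1 and 278.3 TPM, or 95.9% and 95.3% of the sum. NM_001113386, with 719 codons and a different end, corresponds to the soluble receptor known in mice, and stood at 12.0 TPM in the alum pool and 13.6 TPM in the alum + KLH pool. Its share was 4.06% and 4.66%, and its log2 ratio of 0.16 was within the neighbour SD of 0.34.

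Cntfr, at lower level, was divided differently. NM_001136056 was at 2.88 TPM, or 26.0% of the sum, in the alum pool and at 3.27e-07 TPM in the alum + KLH pool, both below 3 TPM. Its log2 ratio was -1.96 beside a neighbour SD of 0.65, and only the 3 TPM threshold left it out of the 2-fold count. With a value this near 0, the ratio depends on the 1 TPM added to both pools. NM_016673 was at 3.82 and 5.94 TPM, or 34.5% and 62.5%, and NM_001146080 at 4.37 and 3.57 TPM. NM_001136056 and NM_016673 have the same coding length of 372 codons, and differ by their first exon: 131 and 62 of their 31-base words are absent from the other of this pair. Clcf1 was likewise moved between rows at low level, with NM_001310038 at 0.83 and 0.53 TPM, NM_019952 listed at 0 in the alum pool and 0.38 TPM in the alum + KLH pool, and NM_001310039 listed at 0 in both. Il6, Il6ra, Il6st and Socs3 had 1 transcript each, and the level of Il11ra1 was assigned to NM_010549.

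**Figure D3:**
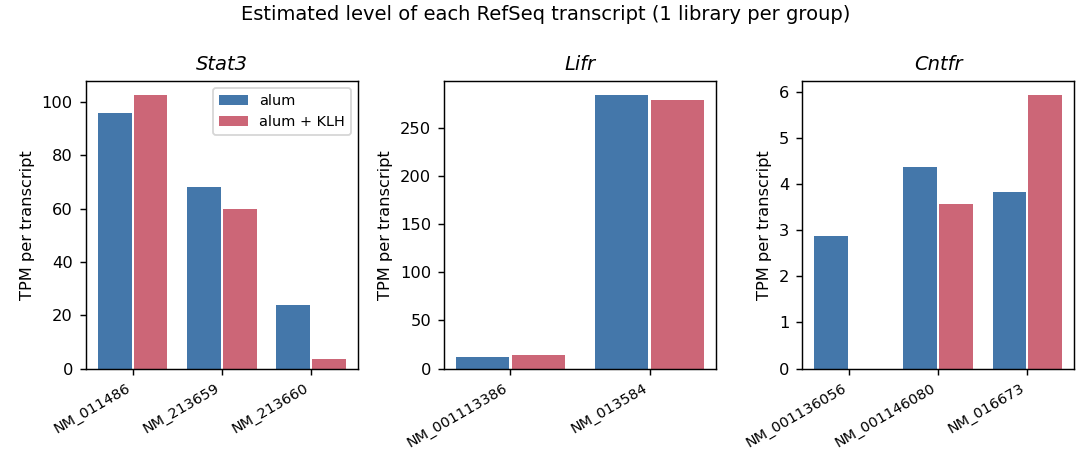
Estimated TPM of each RefSeq transcript of Stat3, Lifr and Cntfr in the alum (blue) and alum + KLH (red) pools, on linear axes from 0 that differ between panels, with 1 library per group and no error bars. Stat3 NM_213660 stood at 23.9 and 3.58 TPM, whereas the Lifr transcripts were alike in both pools and each Cntfr transcript was under 6 TPM.

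The rest of the pathway was read from 9 lists of 72 genes, all present in the data. Of these, 49 exceeded 3 TPM in both pools and 50 in either, and 0 were at least 2-fold higher and 0 lower. Among all genes 45.5% exceeded 3 TPM in both pools. Of the 11648 genes above it in either pool, 0.695% were at least 2-fold higher and 0.944% lower. At these shares, 0 of 50 does not set the pathway genes apart from other genes. The median log2 ratio of the 50 was -0.06, with 17 higher and 33 lower and a range of -0.55 to 0.22. Over all detected genes the median was also below 0, at -0.02. The share of all detected genes that were lower was not computed, here or for the counts of each list below. Named below are ligands, receptors and the highest genes of the other lists.

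Most other ligands of the family were below 3 TPM. Cntf, a factor that Schwann cells are known to make, was the only gene of 8 above 3 TPM, at 4.13 TPM in the alum pool and 4.64 TPM in the alum + KLH pool, and Il6 was 26.1 and 27.2 times as abundant. Il11 stood at 0.69 and 0.87 TPM, Ctf1 (cardiotrophin-1) at 1.09 and 1.50 TPM, and Osm (oncostatin M) at 0.03 TPM in both. Il27, Ebi3 and Ctf2 were below 1.3 TPM in both pools.

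Of 4 other receptors of the family, 2 were above 3 TPM. Osmr, which joins gp130 in the oncostatin M receptor, was at 99.9 TPM in the alum pool and 88.9 TPM in the alum + KLH pool (log2 ratio -0.17, neighbour SD 0.14), and Lifr was 2.97 and 3.28 times Osmr. Il31ra, which pairs with OSMR for the itch cytokine interleukin-31, was at 22.0 and 18.1 TPM (-0.27, neighbour SD 0.18). Il27ra and Il11ra2 were below 0.2 TPM in both pools.

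Of the 4 JAK kinase genes below the receptors, 2 were above 3 TPM in both pools, beside 45.5% of all genes. Jak1 was high at 399.3 and 415.4 TPM, Jak2 stood at 79.8 and 79.5 TPM, and Tyk2 at 1.02 and 1.09 TPM was below the threshold, as was the fourth kinase gene. Of 6 other STAT genes 4 were above 3 TPM in both pools, all 4 with lower values in the alum + KLH pool and a median log2 ratio of -0.10. Stat6, the factor of interleukin-4 signalling, stood at 46.4 and 41.2 TPM, and Stat2, known from interferon signalling, at 41.5 and 37.8 TPM.

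Other feedback inhibitors and phosphatases were above 3 TPM for 12 of 14 genes, 5 higher and 7 lower in the alum + KLH pool, with a median log2 ratio of -0.04. Socs2, an inhibitor best known from growth hormone signalling, was at 146.0 and 132.0 TPM, or 4.17 and 3.57 times Socs3. The phosphatase gene Ptpn2 stood at 77.0 and 76.9 TPM, and Socs5 at 68.4 and 76.5 TPM. The proteases that can release soluble IL-6 receptor from the cell surface were both present, Adam10 at 94.1 and 96.1 TPM and Adam17 at 21.1 TPM in the alum + KLH pool with a log2 ratio of 0.007. Of 6 adaptors that link the receptors to ERK and PI3K, 5 were above 3 TPM in both pools, led by Grb2 (139.7 and 133.4 TPM), Sos1 (105.6 and 105.8 TPM) and Ptpn11 (61.0 and 60.9 TPM). The median log2 ratio of these adaptors was -0.006.

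Of 18 genes known to be induced through STAT3, 15 were above 3 TPM in both pools, 5 of them higher and 10 lower in the alum + KLH pool, with a median log2 ratio of -0.07. The highest were the immediate early gene Fos at 454.3 and 417.5 TPM, the chemokine gene Ccl2 at 247.4 and 285.5 TPM and the survival gene Mcl1 at 255.3 and 269.3 TPM. Of 10 genes known to rise in injured sensory neurons, 6 were above 3 TPM in both pools, 1 higher and 5 lower, with a median of -0.21. Gap43, a growth cone gene, was at 456.5 and 441.9 TPM, the injury factor gene Atf3 at 238.0 and 219.1 TPM, and the neuropeptide gene Nts at 44.5 and 32.6 TPM. Galanin (Gal), named after its values were seen because its ratio was the lowest of the 50 genes, was at 45.6 TPM in the alum pool and 30.7 TPM in the alum + KLH pool (log2 ratio -0.55, neighbour SD 0.14).

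**Figure D4:**
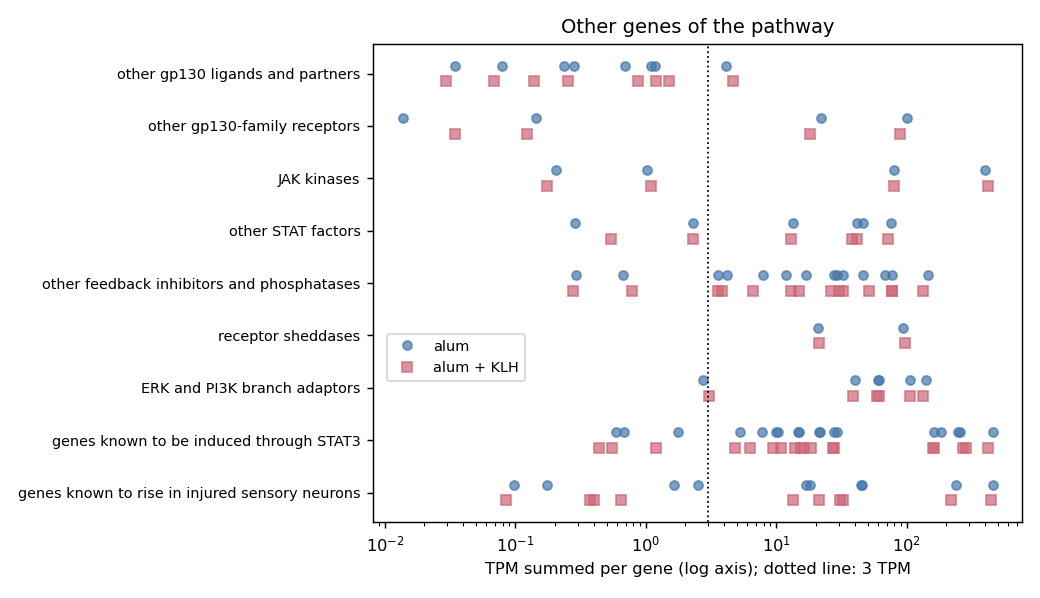
TPM summed per gene, on a log axis, of the 72 other pathway genes in 9 lists, with each gene drawn once for the alum pool (blue circles) and once for the alum + KLH pool (red squares). Of 8 other ligand genes only Cntf lies right of the dotted line at 3 TPM, against 12 of 14 inhibitor and phosphatase genes.

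The preparations were not neurons alone. All 10 neuronal marker genes exceeded 3 TPM in each pool, with medians of 550.4 TPM (alum) and 531.3 TPM (alum + KLH), as were all 7 satellite glia markers, with medians of 52.6 and 52.3 TPM. Of 10 Schwann cell markers 6 passed in both pools, and of 7 fibroblast markers 3. The endothelial markers summed to 17.8 and 13.5 TPM over 6 genes, and of 5 pericyte and smooth muscle markers 1 passed, Rgs5 at 172.2 and 162.4 TPM. Of 10 macrophage markers 1 passed in both pools, and they summed to 10.7 and 10.2 TPM. The highest B cell marker, Cd22, was at 0.79 TPM in the alum pool and 0.76 TPM in the alum + KLH pool, 2 of 6 were listed at 0 in both pools, and 0 of 5 T cell markers were above 3 TPM in both. Which of these cells carried Il6, Il6ra or the other members was not tested.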

How the data were processed

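RNA-seq was available for 2 libraries, 1 per group, each from pooled DRG neurons. The authors prepared stranded mRNA libraries, converted and trimmed reads (bcl2fastq, cutadapt) and quantified them with kallisto on the annotated mm10 transcriptome; tool versions are not given in the sources used here. Deposited were TPM values for each RefSeq transcript, which the authors scaled to the same sum in each library. The methods of the study state a minimum depth, but the files hold no counts per gene, so neither interval nor detection floor was computed.

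TPM was summed over the rows of a symbol. Genes above 3 TPM were counted as detected, and ratios used log2(TPM + 1). Each ratio was set beside the SD over the 500 genes, or transcripts, nearest to it in mean abundance. No test was made. The members and lists were chosen with earlier results of these data known. Named were all members, the ligands and receptors of the other lists, the 3 highest genes of each list and any at least 2-fold apart; Gal was added after its values were seen, and some genes of this rule are not reported here. Alternatives were 0.1 and 0.5 TPM added, the highest transcript of a gene, division by the median ratio between pools (0.987), values relative to Hprt, small RNA rows left out (1474 rows, 1.48% and 1.73% of TPM), and other thresholds. Neighbours without small RNA rows were added after seeing the data.

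Positions, coding lengths, the Stat3 sequences and shared 31-base words came from GENCODE M21 (GRCm38, the assembly of mm10), in which 16 of the 20 member transcripts had a single counterpart. Calculations used Python 3.11.15 with numpy 2.4.6 and pandas 2.3.3, and plots matplotlib 3.10.9. The gene sums, the choice of the highest transcript, the ratios, the 2-fold counts and the neighbour SD were checked on simulated tables with known answers. The other steps were not checked in this way.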

Additional observations from a re-analysis of the deposited data

How the results depend on the processing

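The count of members at least 2-fold apart was 0 in both directions under all 8 alternatives run for it. The median log2 ratio of the 6 detected members, -0.08, was 0.088 when the highest transcript of each gene replaced the sum, because Stat3 then stood at 0.10 and Cntfr at 0.53; the same choice turned Clcf1 to -0.26. Under the other settings the median was between -0.16 (relative to Hprt) and -0.06 (rescaled by the median ratio). Il6 was higher in the alum + KLH pool in each setting, between 0.14 relative to Hprt and 0.24 after rescaling, and Socs3 turned to -0.006 relative to Hprt. With thresholds of 1 and 10 TPM, 8 and 5 members were detected in both pools. Over all genes, the counts at least 2-fold higher and lower were 81 and 110, but 6 and 18 without small RNA rows and 25 and 49 above 10 TPM. No paired analysis was possible because each group has 1 library, and for the same reason no replicate could be left out. The files hold no read counts per gene, so no counting error was computed for the 4 members below 3 TPM.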

Other observations

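The neutrophil marker genes S100a8 and S100a9, which encode the subunits of calprotectin, differed more between the pools than any gene of the IL-6 and gp130 lists above 3 TPM. S100a8 was at 32.3 TPM in the alum pool and 4.59 TPM in the alum + KLH pool (log2 ratio -2.58), and S100a9 at 11.7 and 0.96 TPM (-2.69). Of the other neutrophil markers in the data, Csf3r was at 2.88 and 2.21 TPM, Mpo at 0.10 and 0.02 TPM, and Elane was listed at 0 in both pools. With 1 library per group these differences have no replicate check, and their part in the values of the pathway genes was not tested.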
